A study of Rattus norvegicus with 18 samples.

Results

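Nptx2, Inhba, Vgf, Scg2, Pcsk1, Homer1, Rgs2, Rgs4, Rasgrp1 and Ptgs2 are neuronal genes whose RNA builds up in the hours after synaptic activity, and their products are secreted or act at the synapse and its signaling pathways. These 10 of the 38445 genes in the count files were picked by symbol from a list, with the levels in the treatment groups already known, so the differences between groups given here describe the genes, and each q is a record of a fit across all genes and no independent test of them. RNA-Seq was done on the hippocampus of 18 rats, 6 per group, and all 10 genes passed the filter on low values. The rats were adult male wild-type Sprague Dawley animals, 75 to 85 days old when purchased and so older at collection. They were housed alone and pair fed a Lieber-DeCarli liquid diet as their only food and fluid. Control rats stayed on the control diet, ethanol rats were taken up step by step to a diet with 9% ethanol and drank it for 16 days until collection, and withdrawal rats drank it for 15 days and were then put back on control diet for 24 h. Each library comes from the dorsal hippocampus of 1 rat, dissected by hand from a slice, so its mixture of subfields and cell types can vary from rat to rat.

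Neurons answer strong synaptic input with waves of transcription. Immediate early genes such as Fos and Egr1, which encode transcription factors, come first, and late response genes follow, many of them encoding secreted or synaptic proteins that adjust the strength and wiring of the circuit. In the hippocampus such genes are studied for their part in plasticity and in the response to seizures, and hyperexcitability is a known feature of ethanol withdrawal.

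The promoters are shown first because the cyclic AMP response element, the site through which CREB acts on many activity-regulated genes, can be read in them. Promoter sequence of 250 bases before to 50 after the annotated start was at hand from RefSeq (build GRCr8) for 9 of the 10 genes, Pcsk1 being the other, and both strands were searched for exact matches. The full element (CRE, TGACGTCA) stood in 2 of the 9 promoters, those of Vgf and Scg2, and in 1.83% of the 33469 promoters of that length in the table. The 250 bases before the start of Vgf (chr12:25277021-25277270, minus strand), Scg2 (chr9:88256867-88257116, minus strand) and Nptx2 (chr12:15162046-15162295, minus strand) are printed 5′ to 3′ with CRE and CRE core matches in capitals, Nptx2 as the secreted gene with the core only, and Inhba (chr17:53804509-53804758, minus strand) is printed for contrast as the gene with no match and the clearest separation of withdrawal rats.
Vgf: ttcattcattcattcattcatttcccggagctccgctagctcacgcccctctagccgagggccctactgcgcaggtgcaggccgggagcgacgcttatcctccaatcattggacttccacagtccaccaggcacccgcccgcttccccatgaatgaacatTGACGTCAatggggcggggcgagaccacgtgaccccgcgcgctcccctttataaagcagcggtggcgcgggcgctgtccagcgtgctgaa
Scg2: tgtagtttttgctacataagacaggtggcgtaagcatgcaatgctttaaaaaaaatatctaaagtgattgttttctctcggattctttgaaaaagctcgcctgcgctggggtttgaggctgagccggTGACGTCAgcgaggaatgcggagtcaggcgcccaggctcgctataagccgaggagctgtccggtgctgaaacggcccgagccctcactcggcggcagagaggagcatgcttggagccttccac
Nptx2: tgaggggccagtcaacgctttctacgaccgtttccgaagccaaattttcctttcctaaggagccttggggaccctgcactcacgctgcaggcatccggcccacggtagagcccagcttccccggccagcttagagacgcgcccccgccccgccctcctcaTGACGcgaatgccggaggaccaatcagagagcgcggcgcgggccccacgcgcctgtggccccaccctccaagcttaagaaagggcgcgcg
Inhba: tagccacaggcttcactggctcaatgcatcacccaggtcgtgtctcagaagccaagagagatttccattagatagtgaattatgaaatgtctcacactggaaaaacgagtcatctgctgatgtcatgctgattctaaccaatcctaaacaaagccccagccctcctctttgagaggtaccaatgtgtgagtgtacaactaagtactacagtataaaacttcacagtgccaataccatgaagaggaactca
The element began 90 bases before the start in Vgf and 123 bases before it in Scg2. Counting matches that lie inside a full element, a CRE core (TGACG) was in 5 of the 9 promoters (Nptx2, Vgf, Scg2, Rgs2 and Rgs4) and in 21.2% of all promoters. A TATA box (TATAAA) was in 4 (Inhba, Vgf, Homer1 and Rgs4, the match of Homer1 lying 223 bases before its start) and in 14.2% of all. AP-1 (TGANTCA, 7.33% of all promoters), EGR (GCGTGGGCG, 0.544%) and the CArG box of the serum response element (1.64%) had no exact match in any of the 9. These matches describe the reference letters of a short window and say nothing of which factor acts there.

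Read depth was alike across groups. Counts assigned to genes per rat ranged from 31480318 to 39200777 in controls, from 31885996 to 40179533 with ethanol and from 30873228 to 42679748 in withdrawal, and 17853 genes passed the filter of 0.5 CPM (counts scaled to library size) in at least 1 rat. Levels are given after TMM scaling, and fold changes come from a limma-voom model of all 18 rats with 3 surrogate variables, where q is the Benjamini-Hochberg value over all genes tested and a gene is called at q under 0.1. Index sequences of the libraries fell into 3 sets, and the set of the control rats held no rat of another group, so index set and the contrasts with control cannot be told apart. All ethanol rats shared their set with withdrawal rats 1 and 2, so withdrawal rat 1 is 1 of only 2 withdrawal rats there. Within that set the log2 fold change of withdrawal vs. ethanol was 1.79 for Inhba, 1.57 for Ptgs2, 1.27 for Nptx2 and 0.73 for Vgf, with a median of 0.46 over the 10 genes against 0.39 in all rats, and none was called (lowest q = 0.770 by limma-voom). Withdrawal rat 1 carried the values of Nptx2, Vgf and Ptgs2, since rat 2 had 46.8 CPM of Nptx2 against an ethanol mean of 44.5 CPM, 30.6 CPM of Vgf against 30.8 CPM and 23.2 CPM of Ptgs2 against 18.4 CPM.

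Withdrawal rat 1 stood far above the other rats in several of the 10 genes. It was the highest of the 18 rats in 5 of the 10 (Nptx2, Inhba, Vgf, Rgs2 and Ptgs2), while it was the highest in 11.5% of all genes tested. In tissue that mixes cell types, fewer cells of a type and less RNA per cell cannot be told apart.

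**Figure D1:**
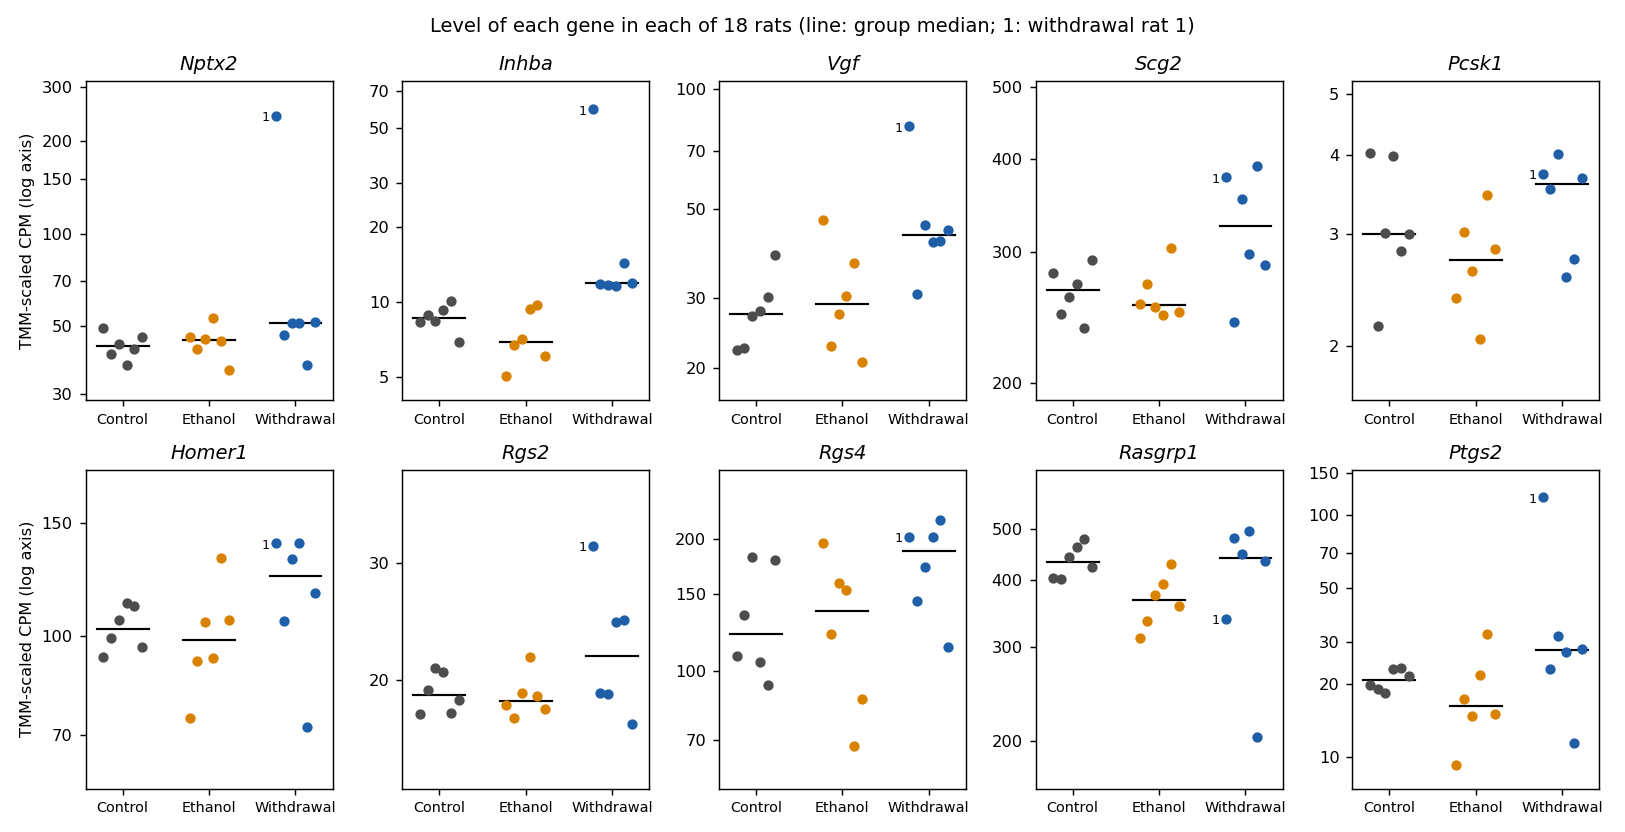
TMM-scaled CPM (log axis) of each gene in each of the 18 rats, by group, with the group median as a line and withdrawal rat 1 marked. Withdrawal rat 1 is the highest point for Nptx2 (241 CPM), Inhba (59.2 CPM), Vgf (80.7 CPM), Rgs2 (31.9 CPM) and Ptgs2 (118 CPM), and for Inhba every withdrawal rat lies above every control and ethanol rat.

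The secreted genes are Nptx2, Inhba, Vgf, Scg2 and Pcsk1. Inhba (gene 29200, chromosome 17, 51894869 to 51919998, minus strand, Rnor_6.0) encodes the inhibin beta A subunit, whose dimer is activin A. Its level ran from 6.91 through a median of 8.59 to 10.1 CPM in control rats and from 5.04 through 6.90 to 9.76 CPM in ethanol rats. In withdrawal rats 1 to 6 it was 59.2, 11.8, 11.6, 11.6, 14.4 and 11.9 CPM. All 6 withdrawal rats thus lay above all 12 others, rat 1 by a wide margin and the other 5 within a narrow band. The mean was 20.1 ± 19.2 CPM in withdrawal against 8.61 ± 1.06 CPM in control (SD, n = 6), and 12.3 ± 1.18 CPM without rat 1 (n = 5), which is 1.42 times the control mean. Groups that did not overlap, with withdrawal above control, were seen in 0.605% of all genes tested, the same share as for withdrawal above ethanol. The fitted log2 difference was 0.90 (SE 0.30) in withdrawal vs. control, at a limma-voom q of 0.117, and 0.98 (SE 0.35) in withdrawal vs. ethanol, at a q of 0.159. Without withdrawal rat 1 both became smaller and both were called, at 0.48 (q = 0.0743) and 0.65 (q = 0.0493). The call against control was also made without withdrawal rat 2, 3 or 4, and without rats 1 and 5 together the difference was 0.36 (q = 0.168). Against ethanol it was 0.55 without ethanol rat 2.

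Vgf (gene 29461, chromosome 12, 22677302 to 22680630, minus strand) encodes a precursor of secreted neuropeptides that neurotrophins induce. Control rats had 22.1 to 38.4 CPM with a median of 27.4, ethanol rats 20.7 to 46.9 CPM with a median of 28.8, and withdrawal rats 30.6 to 80.7 CPM with a median of 43.1. All withdrawal rats but rat 2 exceeded the highest control, and rat 2 was below that one control only. Ethanol rat 1, at 46.9 CPM, was above every withdrawal rat but rat 1. In withdrawal vs. ethanol the log2 difference was 0.72 (SE 0.23, q = 0.134), and it was called without ethanol rat 5 or without withdrawal rat 2, 4 or 5. Vgf was the only one of the 10 genes called in withdrawal vs. control (0.71 on the log2 scale with an SE of 0.21, limma-voom q = 0.0781), where 5.41% of all genes were called. The call was lost without any single control rat or without withdrawal rat 1, 3 or 6 (q between 0.104 and 0.203), and q was 0.219 with no surrogate variables. Leaving out withdrawal rat 1 took the log2 fold change to 0.50, and the mean of the other 5 was 40.8 ± 5.96 CPM against 27.9 ± 5.97 CPM in control.

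Nptx2 (gene 288475, chromosome 12, 12014638 to 12025547, minus strand) encodes neuronal pentraxin 2, a secreted protein that clusters AMPA receptors at excitatory synapses. Its levels were 37.4 to 49.5 CPM in control (median 43.0), 35.9 to 53.1 CPM with ethanol (median 44.95) and 37.5 to 241 CPM in withdrawal (median 51.3). Apart from rat 1, at 241 CPM, the withdrawal rats reached 51.6 CPM at most and overlapped with both other groups. Rat 1 held 5.06 times the mean of the other 5 withdrawal rats. The ratio of withdrawal to control means was 1.85 with that rat and 1.10 without it. The fitted log2 difference in withdrawal vs. control was 0.57 (SE 0.27) at a limma-voom q of 0.254, and leaving out 1 rat at a time placed it between 0.15 (without withdrawal rat 1) and 0.78, with no call.

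Scg2 (gene 24765, chromosome 9, 85237460 to 85243024, minus strand) encodes secretogranin II, a protein of dense-core vesicles and the precursor of secretoneurin. It ran from 237 to 293 CPM in control (median 266), from 247 to 304 CPM with ethanol (median 254) and from 241 to 392 CPM in withdrawal (median 326). Withdrawal rats 1, 3, 4 and 5 lay at 298 to 392 CPM, with rats 1, 3 and 5 above every ethanol rat, and withdrawal rat 2 sat at the low end of the controls. The log2 fold change was 0.23 (SE 0.083) in withdrawal vs. control and 0.19 (SE 0.093) in withdrawal vs. ethanol, with q = 0.136 and q = 0.304 by limma-voom. Scg2 was called in withdrawal vs. control without withdrawal rat 2 (0.31, q = 0.0250), and in withdrawal vs. ethanol without that rat or without ethanol rat 5. Rat 1 made little difference here, since the means were 325 CPM with it and 314 CPM without it, against 265 CPM in control.

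Pcsk1 (gene 25204, chromosome 2, 91450162 to 91497091, minus strand) encodes prohormone convertase 1, which cleaves precursors such as those of Vgf and Scg2 inside the vesicle. It drew few reads, 75 to 163 counts per rat, and its levels were 2.15 to 4.03 CPM in control, 2.06 to 3.46 CPM with ethanol and 2.57 to 4.01 CPM in withdrawal. The medians were 3.01, 2.74 and 3.61 CPM. All groups overlapped and no withdrawal rat exceeded the highest control rat. The log2 fold changes were 0.18 (SE 0.14, q = 0.504 by limma-voom) in withdrawal vs. control and 0.31 (SE 0.16, q = 0.327) in withdrawal vs. ethanol. The former was 0.054 (q = 0.839) without control rat 2.

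Homer1 (gene 29546, chromosome 2, 22909550 to 23012303, plus strand) encodes the postsynaptic scaffold that ties receptors at the synapse to their partners, and its short activity-induced form acts against the long forms. The counts pool all forms of the gene, so the short one was not measured by itself. Levels were 92.6 to 112 CPM in control (median 103), 74.5 to 132 CPM with ethanol (median 98.7) and 72.2 to 139 CPM in withdrawal (median 124). Withdrawal rats 1, 3, 4 and 6 lay above every control rat and withdrawal rat 5 lay below all 17 other rats. The log2 fold change in withdrawal vs. control was 0.20 (SE 0.087, q = 0.225 by limma-voom). It was called without withdrawal rat 5, at 0.25 (q = 0.0874), and was 0.096 (q = 0.511) without withdrawal rat 1.

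The signaling genes are Rgs2, Rgs4 and Rasgrp1. Rgs4 (gene 29480, chromosome 13, 88054817 to 88061108, minus strand) encodes a regulator that speeds GTP hydrolysis by Gi and Gq proteins. It spread widely within every group, from 93.0 to 182 CPM in control (median 122), from 67.6 to 196 CPM with ethanol (median 137) and from 114 to 221 CPM in withdrawal (median 187). Withdrawal rats 1, 4 and 5 lay above every control and ethanol rat, and the lowest was rat 6. The log2 fold change was 0.29 (SE 0.15, q = 0.309 by limma-voom) in withdrawal vs. control and 0.48 (SE 0.17, q = 0.171) in withdrawal vs. ethanol. Without withdrawal rat 5 both were called, at 0.36 (q = 0.0317) and 0.57 (q = 0.0213), and the latter also without withdrawal rat 4 (0.47, q = 0.0642).

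Rgs2 (gene 84583, chromosome 13, 60846458 to 60849061, minus strand), a regulator that acts chiefly on Gq, had 17.8 to 20.9 CPM in control (median 18.99), 17.5 to 21.7 CPM with ethanol (median 18.6) and 17.2 to 31.9 CPM in withdrawal (median 21.8). Withdrawal rats 1, 4 and 5 were above every control rat, rats 2 and 3 lay among them and rat 6 was the lowest of all 18. The log2 fold change in withdrawal vs. control was 0.15 (SE 0.10, q = 0.446 by limma-voom), and without withdrawal rat 1 it was 0.026 (q = 0.865).

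Rasgrp1 (gene 29434, chromosome 3, 108984029 to 109044420, minus strand) encodes an exchange factor that activates Ras in answer to calcium and diacylglycerol, and it was the only one of the 10 with a fitted value below 0 in withdrawal vs. control (-0.09 on the log2 scale with an SE of 0.092, limma-voom q = 0.604). Control rats had 403 to 478 CPM (median 433), ethanol rats 312 to 429 CPM (median 367) and withdrawal rats 203 to 496 CPM (median 441). Ethanol rats were low, with 5 of the 6 below every control rat, and withdrawal rats split into 4 at control level or above and rats 1 and 5 at 338 and 203 CPM. In ethanol vs. control the log2 fold change was -0.22 (SE 0.098, q = 0.379 by limma-voom). That in withdrawal vs. control was -0.012 without withdrawal rat 5 or without rat 6, and without withdrawal rats 1 and 5 it turned to 0.02 (q = 0.908).

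Ptgs2 (gene 29527, chromosome 13, 67351230 to 67356920, plus strand) encodes cyclooxygenase 2, the inducible enzyme of prostaglandin synthesis, which excitatory neurons make after activity. Its levels were 18.3 to 23.4 CPM in control (median 20.7), 9.23 to 32.2 CPM with ethanol (median 16.2) and 11.4 to 118 CPM in withdrawal (median 27.6). Withdrawal rats 1, 3, 4 and 6 were above every control rat, rat 2 was level with the highest controls and rat 5 was below them all. Rat 1 held 4.88 times the mean of the other 5, whose mean of 24.3 ± 7.79 CPM was 1.16 times that of the controls. The log2 fold change in withdrawal vs. control was 0.66 (SE 0.31) at a limma-voom q of 0.246, and leaving out 1 rat at a time placed it between 0.23 (without withdrawal rat 1) and 0.88.

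**Figure D2:**
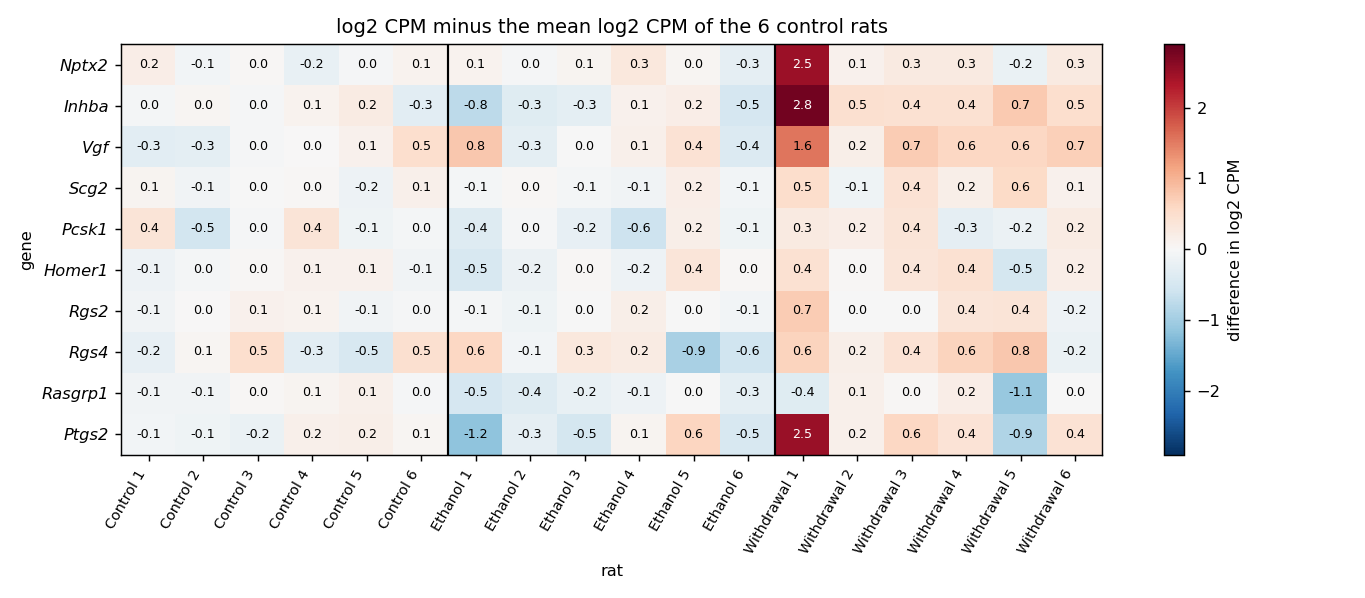
Difference in log2 CPM between each rat (columns) and the mean of the 6 control rats, for each gene (rows), with black lines between the groups. Withdrawal rat 1 has the darkest cells, in Inhba, Nptx2 and Ptgs2, and withdrawal rat 5 pairs low Rasgrp1, Ptgs2 and Homer1 with high Rgs4, Inhba and Scg2.

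Across the 10 genes, 9 had a fitted log2 fold change above 0 in withdrawal vs. control, where 50.1% of all genes did, with a median of 0.26 against a median of 0.000303 over all genes. Individual q values ran from 0.0781 to 0.604, with 1 call against 5.41% of all genes, and 5 genes had an unadjusted p under 0.05 against 3531 of the 17853 tested. In withdrawal vs. ethanol all 10 were above 0 with a median of 0.39, against 49.9% of all genes and a median of -0.000236, and none was called (lowest q = 0.134 by limma-voom, 3 genes at an unadjusted p under 0.05 against 3025 of the 17853 tested, 1 call by edgeR without surrogate variables), where 2.89% of all genes were. In ethanol vs. control 5 of the 10 were above 0 against 50.1% of all genes, the median was 0.01, and none was called either (lowest q = 0.379 by limma-voom, 1 gene at an unadjusted p under 0.05 against 2228 of the 17853 tested), where 0.493% of all genes were. The contrasts share the control or withdrawal rats, so their values are set side by side and not compared. Without withdrawal rat 1 the median in withdrawal vs. control was 0.19 and 1 gene was called, Inhba (558 of all 17816 tested), and without withdrawal rats 1 and 5 it was 0.20 with 1 call, Rgs4 (303 of 17725). The 2-sided exact permutation test of each gene alone, whose smallest p is 0.00216, gave p under 0.05 for 2 of the 10 in withdrawal vs. control (Inhba and Vgf, against 12.8% of all genes), 1 in ethanol vs. control (Rasgrp1, exact p = 0.0108, against 13.5%) and 3 in withdrawal vs. ethanol (Inhba, Vgf and Scg2, against 14.3%).

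**Figure D3:**
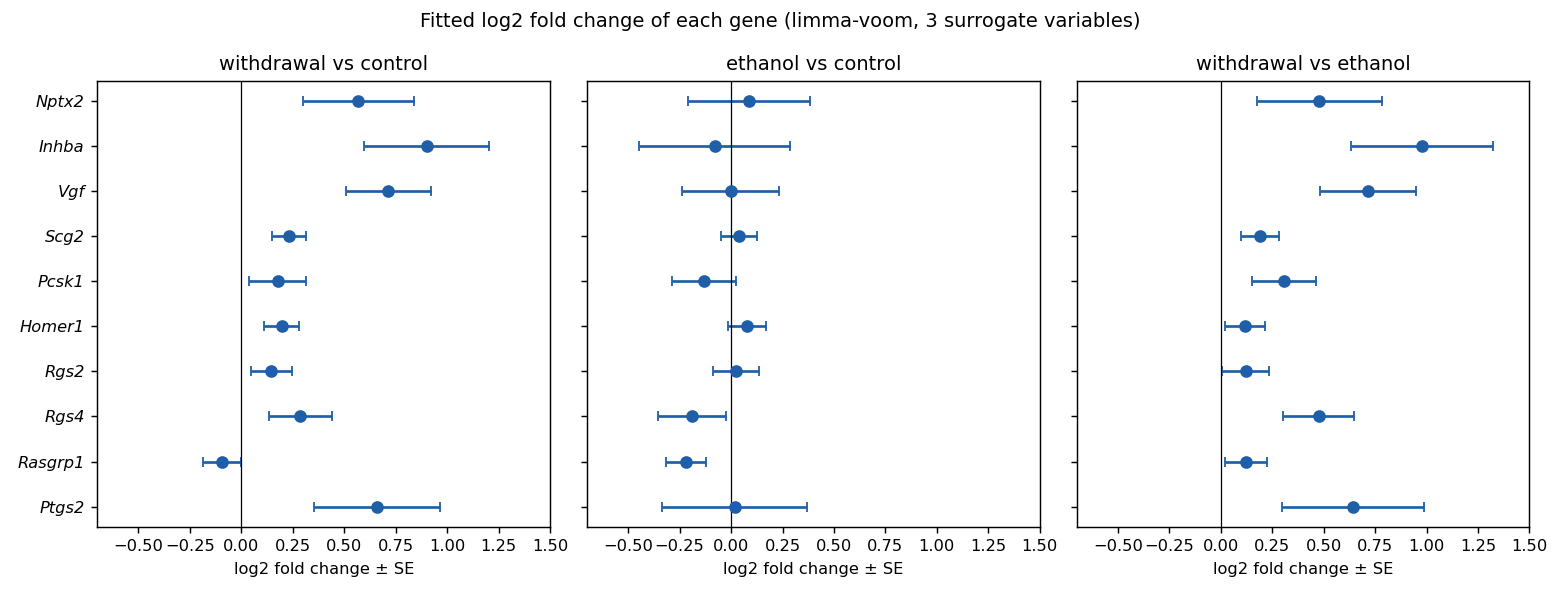
Fitted log2 fold change (x axis) of each gene with its standard error in the 3 comparisons. Values in withdrawal vs. control run from -0.09 (Rasgrp1) to 0.90 (Inhba), those in ethanol vs. control lie between -0.22 and 0.09, and all 10 lie above 0 in withdrawal vs. ethanol.

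The ethanol rats also differed among themselves. Ethanol rat 1 had the lowest Homer1 (74.5 CPM), Ptgs2 (9.23 CPM), Rasgrp1 (312 CPM) and Inhba (5.04 CPM) of its group and its highest Vgf (46.9 CPM) and Rgs4 (196 CPM). Ethanol rat 5 was the reverse in part, with the group's highest Homer1 (132 CPM), Ptgs2 (32.2 CPM), Rasgrp1 (429 CPM), Inhba (9.76 CPM) and Scg2 (304 CPM) and its lowest Rgs4 (67.6 CPM). The coefficient of variation within control rats was between 6.97% (Rgs2) and 28.9% (Rgs4), within ethanol rats it was between 7.71% (Rgs2) and 42.9% (Ptgs2), and within withdrawal rats it was between 17.3% (Pcsk1) and 99.0% (Nptx2). The last rests on withdrawal rat 1, without which Nptx2 was 47.7 ± 6.04 CPM (SD, n = 5).

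Levels of different genes were compared per kb of exon length, in control rats. Rasgrp1 stood highest at 120 ± 8.53 CPM per kb (SD, n = 6), then Scg2 at 98.9 ± 7.71 and Rgs4 at 45.8 ± 13.3 CPM per kb, and these levels did not overlap from one to the next. Rgs2 (28.0 ± 1.95 CPM per kb), Nptx2 (22.7 ± 2.24) and Homer1 (18.2 ± 1.44) followed, each overlapping with its neighbour. Ptgs2 (11.5 ± 1.18 CPM per kb) and Vgf (9.38 ± 2.00) overlapped too, and Inhba (0.814 ± 0.101) and Pcsk1 (0.628 ± 0.144) were the lowest and overlapped with each other. The annotation used for counting gave Rgs2 an exon length of 685 bases and Inhba 10581 bases, and the place of a gene in this order rests on such lengths.

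Other genes of the same programs were read from fixed lists. Of 21 other late activity-regulated genes, 20 had a log2 fold change above 0 in withdrawal vs. control, against 50.1% of all genes. Their median was 0.39, and 5 were called as higher and none as lower, where 5.41% of all genes were called. The 5 were Gadd45g (0.70, q = 0.0388), a stress and DNA demethylation factor, Bdnf (0.67, q = 0.0842), the neurotrophin, Cdkn1a (0.57, q = 0.0859), an inhibitor of the cell cycle, Plat (0.47, q = 0.0263), tissue plasminogen activator, and Spry2 (0.45, q = 0.0483), an inhibitor of receptor tyrosine kinase signaling, all by limma-voom. Cdkn1a had a higher mean in ethanol rats (24.7 ± 9.30 CPM) than in withdrawal rats (20.1 ± 8.33 CPM), against 13.9 ± 2.499 CPM in control (SD, n = 6), and its q was 0.542 with no surrogate variables. Withdrawal rat 1 was the highest of 18 rats in 14 of these 21 genes, against 11.5% of all genes tested. Without it 2 calls were left (Plat and Gadd45g) with a median of 0.19, and without rats 1 and 5 only Plat was called. None of the 21 was called in ethanol vs. control or in withdrawal vs. ethanol. There 2 and 7 had an unadjusted p under 0.05, against 2228 and 3025 of all 17853 genes. Without withdrawal rat 1, Pcdh8 was called as higher in the former and Baz1a in the latter. Without ethanol rat 5, 5 were called in withdrawal vs. ethanol, and the calls over all genes rose from 516 to 1856. Bdnf had the same highest rat as Nptx2, Inhba and Vgf, with 26.6 to 35.4 CPM in control, 16.7 to 54.0 CPM with ethanol and 29.7 to 99.5 CPM in withdrawal, the last in rat 1.

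Among 18 immediate early genes, 1 was called as higher in withdrawal vs. control and in withdrawal vs. ethanol. Over all genes 5.41% and 2.89% were called there. The gene was Fosl1, which encodes the AP-1 protein Fra-1. It was near the limit of detection in control rats (0.0253 to 0.137 CPM, against 0.112 to 3.90 CPM in withdrawal with the highest value in rat 1). Fosl1 passed the filter on low values only through withdrawal rats, so it was tested because of the group in which it was high. None was called in ethanol vs. control, where 10 of the 18 and 2228 of all 17853 genes had an unadjusted p under 0.05. Without withdrawal rat 1, or without rats 1 and 5, Junb was called there as higher. Without ethanol rat 5, 3 were called as higher in withdrawal vs. control (Fosl1, Egr1 and Atf3). In withdrawal vs. ethanol Jun was called as lower without withdrawal rat 1, and 5 were called as lower without withdrawal rats 1 and 5 (Fosb, Junb, Nr4a2, Ier2 and Btg2). These genes peaked in another animal, since ethanol rat 5 was the highest of 18 rats in 12 of the 18 against 8.2% of all genes tested. Fos was 68.1 CPM in that rat against 7.93 to 10.3 CPM in controls, and Egr1 was 117 CPM against 36.8 to 51.0 CPM. Withdrawal rat 1 was the highest in 6 of the 18, against 11.5% of all genes tested. Among these were Arc at 409 CPM against 60.1 to 101 CPM in controls and Egr3 at 336 CPM against 62.8 to 84.96 CPM. Over the 10 late secreted and synaptic genes, the median log2 difference from the control mean was 0.17 in ethanol rat 5 and 0.69 in withdrawal rat 1, and over the immediate early genes it was 1.53 and 1.01. So the rat with the strongest immediate early RNA was not the one with the strongest late RNA.

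**Figure D4:**
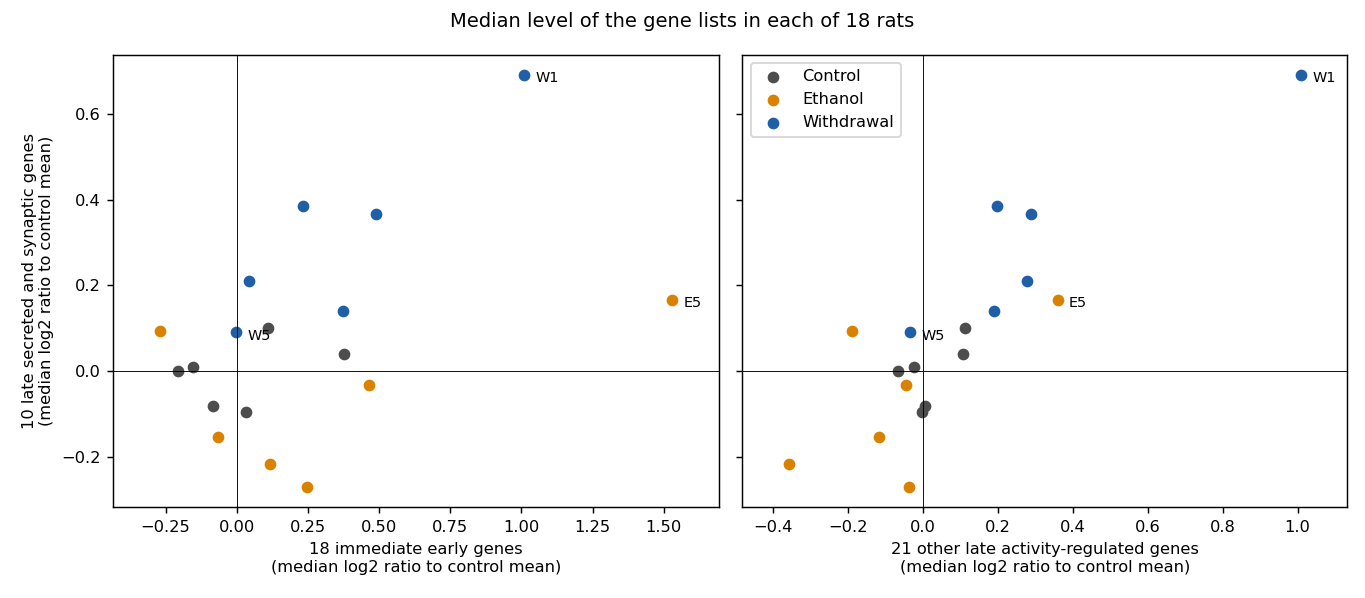
Median log2 difference from the control mean in each rat over the 10 late secreted and synaptic genes (y axis) and over 18 immediate early genes or 21 other late activity-regulated genes (x axes), with withdrawal rats 1 and 5 (W1, W5) and ethanol rat 5 (E5) marked. Ethanol rat 5 lies far to the right for immediate early genes (1.53). On the y axis it stands at 0.17, below withdrawal rat 1 (0.69) but above every control rat and every other ethanol rat. Withdrawal rat 1 is high on both axes in both plots.

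Partners of the individual proteins were read from such lists too. Nptx1, the constitutive pentraxin that assembles with Nptx2, was called as lower in withdrawal vs. control (-0.22 on the log2 scale, limma-voom q = 0.0435) and in withdrawal vs. ethanol (-0.22, q = 0.0945), and the receptor Nptxr was not called, which makes 1 of 2. Among 12 genes of activin signaling none was called in any comparison with all rats, with 2, 1 and 2 at an unadjusted p under 0.05 in withdrawal vs. control, ethanol vs. control and withdrawal vs. ethanol. Without withdrawal rat 1, Smad7 was called as higher in withdrawal vs. control. Inha was called as higher in ethanol vs. control without ethanol rat 5 or without withdrawal rats 1 and 5. It was called as lower in withdrawal vs. ethanol without ethanol rat 5. Among 8 scaffold partners of Homer1, 1 was called as higher and 1 as lower in withdrawal vs. control, where 5.41% of all genes were called. In the same order of comparisons, 4, 1 and 4 of the 8 had an unadjusted p under 0.05. The gene called as higher was Shank1, a postsynaptic scaffold (0.22, limma-voom q = 0.0572), with 458 to 560 CPM in controls and 457 to 674 CPM in withdrawal rats. The call of Shank1 was lost without withdrawal rat 1 but made without withdrawal rats 1 and 5. Both calls of Nptx1 were lost without withdrawal rats 1 and 5, and that against ethanol also without ethanol rat 5.

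Of 9 other dense-core vesicle and processing genes tested, 1 was called as higher in withdrawal vs. control, Pam, whose enzyme amidates neuropeptides (0.18 on the log2 scale, limma-voom q = 0.0223). Pam was 300 to 330 CPM in control and 327 to 419 CPM in withdrawal, and was called in withdrawal vs. ethanol as well (0.20, q = 0.0437), together with Cadps, a priming factor of dense-core vesicles (0.20, q = 0.0873). Without withdrawal rats 1 and 5 Pam was no longer called against control, while both stayed called against ethanol. Of 17 other RGS genes tested, 1 was called, Rgs10, lower in withdrawal vs. ethanol (-0.28, q = 0.0711), and this call was lost without withdrawal rats 1 and 5. With all rats, no gene was called among 11 of prostaglandin synthesis and reception or among 8 other RasGRP and Ras genes. Between 0 and 2 of each had an unadjusted p under 0.05 per comparison. In both lists calls were made in withdrawal vs. ethanol without ethanol rat 5. In ethanol vs. control, no gene of any of these lists was called with all rats. Among the calls there with rats left out were Rgs10 as higher without withdrawal rat 1 and Cadps as lower without ethanol rat 5. Without withdrawal rats 1 and 5, Hras was called as higher, and Rgs10 and Rgs16 in opposite directions. With no surrogate variables, of all list calls named here only that of Pam in withdrawal vs. ethanol (q = 0.0472) and that of Cadps (q = 0.0506) were kept.

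Within groups, the median correlation between the 10 genes was lower without withdrawal rat 1, while some pairs rose. After each group's mean was subtracted, the 45 pairs had a median Pearson r of 0.31 over 18 rats, and 33 were positive. The strongest was Nptx2 with Inhba (r = 0.87, permutation p = 0.0917, Spearman rho = 0.48, permutation p = 0.111), which fell to r = 0.54 without withdrawal rats 1 and 5, the farthest from the median of Nptx2, and to -0.04 without rat 1 alone. None of the 45 passed Benjamini-Hochberg adjustment of the permutation p at 0.05, by r or by rho. Without withdrawal rat 1 the median r was 0.04 and 24 pairs were positive. Homer1 kept to Ptgs2 and Rasgrp1 in that set (r = 0.85 and r = 0.84, against 0.75 and 0.75 with all rats, adjusted permutation p = 0.128 for both, Spearman rho = 0.55 and 0.54, adjusted permutation p = 0.247 for both), and without ethanol rat 1 and withdrawal rat 5 these 2 relations came to r = 0.53 and r = 0.34. Rgs4 had both signs, with r = 0.44 to Rgs2 (adjusted permutation p = 0.190, rho = 0.51, adjusted permutation p = 0.247), positive r to Vgf (0.32), Nptx2 (0.19) and Scg2 (0.165), and r = -0.46 to Homer1 and -0.53 to Pcsk1 (adjusted permutation p = 0.303 and 0.190, rho = -0.36 and -0.52, adjusted permutation p = 0.376 and 0.247).

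**Figure D5:**
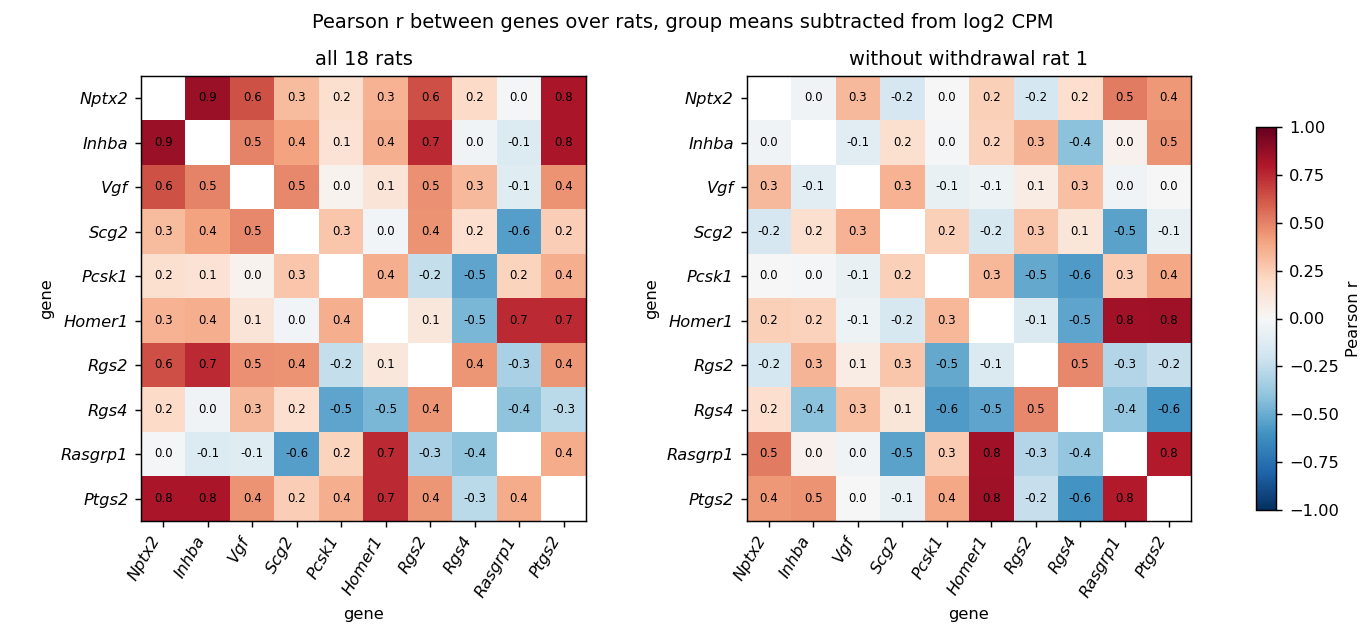
Pearson r between each pair of genes over rats, after subtraction of group means from log2 CPM, with all 18 rats (left) and without withdrawal rat 1 (right). The red corner of Nptx2, Inhba, Rgs2 and Ptgs2 fades without that rat (Nptx2 with Inhba goes from 0.87 to -0.04) and Homer1 stays red with Ptgs2 and with Rasgrp1, while Rasgrp1 with Ptgs2 goes from 0.37 to 0.79.

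The genes whose pattern over the 18 rats was most like the mean of the 10, among 12124 other genes with a mean over 5 CPM and after group means were subtracted, included Rnf4 (r = 0.95), a ubiquitin ligase, Eif4e (0.94), the cap-binding translation factor, Rybp (0.93), a Polycomb protein, and Lingo1 (0.92), a neuronal membrane protein. In withdrawal rat 1 these 4 were above their control means, such as Rnf4 at 161 CPM against 118 ± 4.24 CPM and Lingo1 at 458 CPM against 162 ± 6.99 CPM. Without that rat their r was between 0.63 (Lingo1) and 0.83 (Rnf4).

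The summed levels of markers of cell types and subfields also differed from rat to rat. The 4 endothelial markers summed to 205 to 236 CPM in control, 224 to 283 CPM with ethanol and 223 to 329 CPM in withdrawal, the highest sum in withdrawal rat 1, and 3 of the 4 were called as higher in withdrawal vs. control. The 5 dentate granule cell markers summed to 197 to 234 CPM in control, 181 to 218 CPM with ethanol and 97.5 to 212 CPM in withdrawal, with 1 of 4 tested called as lower, and the sums of withdrawal rats 5 (97.5 CPM) and 1 (157 CPM) were the lowest of all 18. The 4 CA3 markers summed to 305 to 430 CPM in control, 308 to 468 CPM with ethanol and 138 to 408 CPM in withdrawal, again with rats 5 and 1 lowest, and the 5 interneuron markers summed to 360 to 514 CPM, 334 to 532 CPM and 400 to 721 CPM, with rats 5 and 1 highest. Ethanol rat 1, low in Homer1, Ptgs2 and Rasgrp1, had the lowest sum of the 4 CA1 markers (214 CPM, against 410 to 581 CPM in control and 219 to 589 CPM in withdrawal) and the highest sum of the 5 thalamus markers (1294 CPM, against 233 to 671 CPM in control and 190 to 575 CPM in withdrawal). The 5 choroid plexus markers ranged widely, from 1025 to 2132 CPM in control, 1342 to 5050 CPM with ethanol (highest in ethanol rat 1) and 25.9 to 5012 CPM in withdrawal (27.2 CPM in withdrawal rat 5), with none called. Withdrawal rat 5 had the lowest sums of the 5 astrocyte markers (2041 CPM, against 2511 to 2836 CPM in control, 2084 to 2887 CPM with ethanol and up to 3563 CPM in withdrawal) and of the 5 microglia markers (113 CPM, against 135 to 154 CPM in control, 125 to 151 CPM with ethanol and up to 150 CPM in withdrawal). Of the astrocyte markers 1 was called as higher and 1 as lower in withdrawal vs. control, and 1 as higher in withdrawal vs. ethanol. Of the interneuron markers 1 was called as higher in withdrawal vs. ethanol, and of the thalamus markers 1 as lower in withdrawal vs. control. Tdo2, Fibcd1 and Iyd, markers of the dentate, CA1 and CA3 lists, stayed under 0.5 CPM in every rat, whereas the 4 neuron markers summed to 5129 to 5592 CPM in control, 4304 to 6011 CPM with ethanol and 5043 to 5895 CPM in withdrawal with none called. The part of tissue makeup in the levels of the 10 genes was not tested.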

How the data were processed

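Per the labels and the study's methods, stranded mRNA libraries from the hippocampus of 18 rats were sequenced from both ends, the authors aligned reads to Rnor_6.0 with STAR (version 2.5.2a), and the deposited files hold raw counts per gene from featureCounts (version 1.5.0), whose strand setting is not given in the sources used here. Gene IDs were named through the RefSeq table, which matched 29322 of 38445. Genes over 0.5 CPM in at least 1 rat were kept (17853). TMM factors and log2 CPM with a prior count of 2 came from edgeR (4.0.16), 3 surrogate variables from sva (3.50.0) and fold changes from limma-voom (3.58.1), a model of the 3 groups with Benjamini-Hochberg q. DESeq2 (1.42.0) was an alternative, with edgeR's quasi-likelihood test, other filters and scalings, and fits without single rats. Correlations used 100000 permutations within groups. Index sets were read from the names of the deposited files. Promoters came from RefSeq (GRCr8). Scripts were tested on simulated data. The 10 genes, the lists and the markers were chosen with earlier results of these data known. Every gene of the 10 is named with its values, as are list genes with q under 0.1 (all where a list had at most 5) and the 5 genes most like the mean of the 10, except that some of these are not reported here. No pair of libraries was alike within sampling noise (lowest chi-square per degree of freedom 5.783 over 45 pairs within groups). Replicates were separate rats.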

Additional observations from a re-analysis of the deposited data

Results flagged for a closer look

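In a screen of the 30 sets of 6 rats (10 genes in 3 groups) for a single rat apart from the rest, 2 stood out, and chance alone marks about 1 in 20 such sets. Nptx2 in withdrawal rat 1 was 241 CPM, and its gap to the next rat took up 0.828 of the range of its group on the log2 scale. Inhba in withdrawal rat 1 was 59.2 CPM, with a gap of 0.870 of the range.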

How the results depend on the processing

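The median over the 10 genes kept its sign in withdrawal vs. control and in withdrawal vs. ethanol when single rats were left out (0.19 to 0.32 and 0.23 to 0.49), while in ethanol vs. control it ran from -0.12 to 0.15. Counts of calls depended on the fit. Over all genes, 965, 88 and 516 were called in withdrawal vs. control, ethanol vs. control and withdrawal vs. ethanol. At q under 0.05 they were 384, 10 and 119. With no surrogate variables the first 2 were 41 and 50. With 2 surrogate variables the first was 601 and the last 275, and with 4 the last 2 were 225 and 942. DESeq2 called 1624, 473 and 1176, edgeR without surrogate variables 33 in the first, and the fit with no filter 490, 9 and 192. Fits of only the groups compared gave 28 in ethanol vs. control and 0 in withdrawal vs. ethanol, the shared index set gave 0 in the latter, and leaving out withdrawal rats 1 and 5, chosen after seeing the data like the list fits without withdrawal rat 1 or ethanol rat 5, gave 303 in withdrawal vs. control. Leaving out 1 rat gave 23 (without withdrawal rat 6) to 1948 (without withdrawal rat 2), 0 to 257 and 0 to 1856. Of the 10 genes, the 1 call in withdrawal vs. control became 0 at q under 0.05, with no surrogate variables, by edgeR without them and with no filter, 2 by edgeR with them (1030 of all genes), 3 by DESeq2 (1624), 4 with 4 surrogate variables (1358), 5 in the fit of the 2 groups alone (1229 of 17601) and 0 to 3 without 1 rat. In ethanol vs. control 4 surrogate variables gave 1 call and leaving out 1 rat 0 to 0. In withdrawal vs. ethanol there were 3 with 4 surrogate variables, 1 by edgeR without them (682 of all genes), 3 without withdrawal rats 1 and 5 (552) and 0 to 3 without 1 rat.

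Of 18 pairs of rats with the same replicate number, 4 had r over 0.1 between their deviations from group means. The lowest r was -0.32 and the highest 0.38. Differences between single rats also enter r, so this check cannot show whether the numbers pair the rats. With the number as a block, 33 genes were called in ethanol vs. control and 94 in withdrawal vs. ethanol, 3 of the 10 genes and 1081 of all genes were called in withdrawal vs. control, and Inhba (0.039) and Vgf (0.10) changed sign in ethanol vs. control.

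Log2 differences that changed sign were never called. In ethanol vs. control with no surrogate variables they were 0.10 (Vgf), -0.013 (Scg2), -0.060 (Homer1), -0.018 (Rgs2) and -0.27 (Ptgs2), and by edgeR without them 0.14, -0.013, -0.042, -0.020 and -0.19. They were -0.045 (Nptx2) and -0.17 (Ptgs2) with 2 surrogate variables, -0.049 (Ptgs2) with 4, and 0.037 for Vgf by edgeR with 3 and 0.036 by DESeq2. Rasgrp1 in withdrawal vs. control was 0.022 without withdrawal rats 1 and 5. Without 1 rat, ethanol vs. control ran from -0.23 to 0.30 for Ptgs2, -0.21 to 0.18 for Vgf, -0.26 to 0.30 for Inhba, -0.0039 to 0.14 for Rgs2 and -0.068 to 0.083 for Scg2, and withdrawal vs. ethanol from -0.010 to 0.19 for Rgs2. The cause was not tested.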
